A study of Homo sapiens with 3 samples.

Results

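The gene expression of Huh7 cells before any exposure to chlorogenic acid (CA) was read from the single untreated array of the series, 1 of 3 arrays in all. Every gene probe of that array entered, without the control spots and without spots that the scanner software had marked as uneven or as outliers among repeat spots. This left 34084 probes, of which 25748 (75.5%) carried a RefSeq transcript accession that could be given a gene symbol, and each of the 19730 genes named in this way was represented by its brightest probe.

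The study grew the cells in culture medium with serum and compared an untreated culture with cultures given CA, a dietary polyphenol ester from coffee and fruit, at 50 µM and 100 µM for 24 h. RNA of each culture was amplified, labelled with the green dye Cy3 and hybridised to its own 1-colour Agilent oligonucleotide array of 44495 spots. The labels give no treatment for the untreated culture, and the methods name the vehicle DMSO as the untreated control. Each group was 1 culture on 1 array, so no difference between groups was tested and every value below describes these arrays. Signals in intensity units are not scaled between arrays. The 75th percentiles of the untreated, CA 50 µM and CA 100 µM arrays were 1059, 1207 and 1249 units.

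Huh7 is an established human line from a hepatocellular carcinoma, and its cells grow attached to plastic as an epithelial sheet. Hepatocytes make most proteins of the blood plasma, store and release glucose, turn ammonia into urea, build bile acids and break down drugs, under the control of transcription factors of the HNF4, FOXA and C/EBP families. Fetal hepatocytes and hepatoblasts make alpha-fetoprotein and IGF2, which the adult liver largely stops making and which hepatocellular carcinomas often make again.

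A probe was called detected where the scanner software put its spot well above background, or at least 50% of its spots where it was printed more than once. On the untreated array 14966 of 19730 named genes were detected, which is 75.9%, and the median gene lay at percentile 61.85 of all probes with a processed signal of 210 intensity units. Detected probes began at 12.2 units and the brightest reached 137764 units, with no saturated spot. The 153 negative control spots had a median of 2.73 units, a highest value of 13.3 units, and 1 of them was called well above background. The error that the scanner software attached to a signal was 10% of it at the median of the detected genes, 14.6% for detected genes under 50 units and 89.2% for genes that were not detected.

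The call was lenient as a sign of expression, as a list of genes that belong to tissues other than liver showed. Of 27 such genes 13 were detected, among them thyroglobulin (TG, 1399 units), myelin basic protein (MBP, 563 units) and the lens crystallin CRYAA (203 units). The glial GFAP and the cardiac MYH6 and MYH7 were not detected. Other probes of MBP gave 96.7 and 2.77 units and that of CRYAA gave 2.94 units. The probes at 2.77 and 2.94 units were not detected. The 95th percentile of the 27 genes of other tissues lay at 414 units, between MBP and CRYAA. It thus rests on the brightest probe of each of these 2 genes. A gene at or above 414 units is called clearly expressed below. By that stricter rule 8358 of 19730 genes, or 42.4%, were clearly expressed. The 25 genes used by every cell, such as ACTB, GAPDH and the basal transcription factor TBP, were all detected and all clearly expressed, from 1737 units for TBP to 100851 units for the elongation factor EEF1A1.

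The brightness of a probe depends on how well its sequence binds as well as on the amount of RNA, so ranks order probes and not transcripts. Among 3140 genes whose several probes were all detected, the brightest probe was 4.97-fold brighter than the dimmest at the median, and 45.1-fold brighter at the 90th percentile. Of the 4988 genes with several probes, 1181 (23.7%) had probes on both sides of the call. Repeat printing added little, since 814 detected probes printed 10 times had a median SD between spots of 0.0612 on the log2 scale. In a bulk culture, fewer cells that make a transcript and less of it in each cell cannot be told apart.

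The 25 brightest genes were led by the machinery of translation. Ribosomal protein genes took 15 of these places, from RPL19 at 137764 units to RPL31 at 85610 units, and EEF1A1, ACTB and the chaperone PPIA took 3 more. The remaining places included ALB, AFP and IGF2, the fatty acid carrier FABP1 (90808 units), the annexin partner S100A10 (111478 units), the glutathione transferase GSTP1 (97870 units) and the lysosomal transporter SLC66A1 (98989 units). GSTP1 is little made by normal hepatocytes, and FABP1 is among their most abundant proteins. On the CA arrays all 25 kept signals near these, with log2 ratios to the untreated array between -0.41 and -0.1 at CA 50 µM and between -0.49 and -0.21 at CA 100 µM after scaling.

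**Figure D1:**
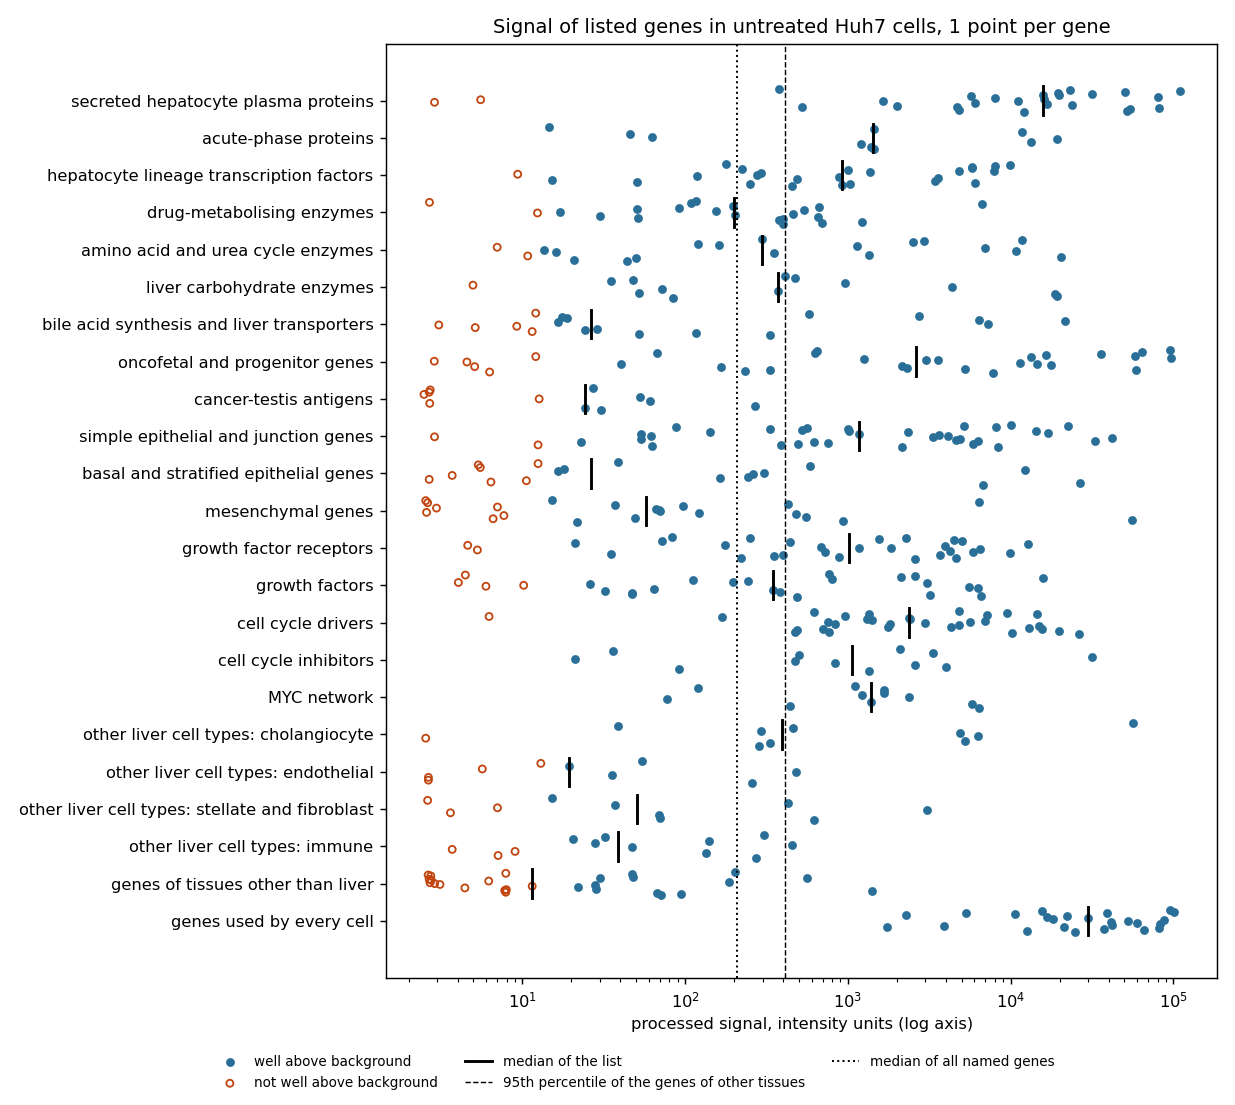
Processed signal in intensity units (log axis) of each listed gene on the untreated array, 1 point per gene, with the lists as rows. Filled points were well above background, open points were not, bars are list medians, the dashed line is the 95th percentile of the genes of other tissues (414 units) and the dotted line the median of all named genes (210 units). Plasma proteins have their median at 15785 units and genes of other tissues at 11.5 units.

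Secreted plasma proteins stood highest among the liver functions. Of 27 measured genes 25 were detected and 24 clearly expressed, beside 75.9% and 42.4% of all genes, and their median percentile was 97.55. Albumin (ALB), the main carrier protein of plasma, gave 109428 ± 10900 units on the untreated array, 112826 units at CA 50 µM and 100920 units at CA 100 µM. RBP4, the carrier of retinol, gave 81177 units and apolipoprotein E (APOE) 80011 units on the untreated array, and the protease inhibitor SERPINA1 and the thyroid hormone carrier transthyretin (TTR) followed at 53870 and 52086 units. All 3 fibrinogen chains were clearly expressed, FGG at 23818, FGB at 16641 and FGA at 6071 units, as were the apolipoproteins APOA2, APOB, APOA1 and APOC1 between 15785 and 31575 units.

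The 2 plasma protein genes that were not detected were coagulation factor IX (F9) and the terminal complement component C9. F9 gave 2.89 ± 2.87, 2.98 and 3.28 units on the untreated, CA 50 µM and CA 100 µM arrays, close to the medians of the negative controls, which were 2.73, 2.83 and 3.15 units. C9 gave 5.55 ± 2.82 units on the untreated array, 4.8 units at CA 50 µM and 33.4 units at CA 100 µM, where its spot lay in an area of the array in which many otherwise dim probes were bright, called a disturbed area below. Prothrombin (F2, 11052 units), antithrombin (SERPINC1, 4802 units) and plasminogen (PLG, 4667 units) were clearly expressed.

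The promoters of 2 bright genes and of F9 are shown to set the sequence beside the signal, with 250 bases before the transcription start (RefSeq, GRCh38.p14, written along the strand of the gene). Capitals mark matches, on either strand, to GTTAAT, a short sequence searched for here as a half-site of liver promoters, and to TATAAA, the core of the TATA box. The ALB promoter (chr4:73404037-73404286, plus strand) and the AFP promoter (chr4:73435971-73436220, plus strand) belong to neighbouring genes of one family, and the F9 promoter is at chrX:139530489-139530738 (plus strand).
ALB: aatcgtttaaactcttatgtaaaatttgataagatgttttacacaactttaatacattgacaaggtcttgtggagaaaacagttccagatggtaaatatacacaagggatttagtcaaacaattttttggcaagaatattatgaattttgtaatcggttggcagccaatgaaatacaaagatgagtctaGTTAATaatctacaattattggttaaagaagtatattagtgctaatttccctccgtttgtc
AFP: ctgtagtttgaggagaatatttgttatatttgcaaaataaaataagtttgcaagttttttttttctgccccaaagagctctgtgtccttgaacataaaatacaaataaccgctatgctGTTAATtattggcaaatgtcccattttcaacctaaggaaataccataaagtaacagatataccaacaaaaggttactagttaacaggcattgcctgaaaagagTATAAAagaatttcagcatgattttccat
F9: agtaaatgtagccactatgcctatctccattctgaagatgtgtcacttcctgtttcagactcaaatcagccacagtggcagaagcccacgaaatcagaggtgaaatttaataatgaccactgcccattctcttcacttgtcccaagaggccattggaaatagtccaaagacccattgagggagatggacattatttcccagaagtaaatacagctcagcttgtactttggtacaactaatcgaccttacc
The half-site began 61 bases before the start of ALB and 132 bases before that of AFP, and AFP had a TATAAA match 29 bases before its start. F9 had neither match in this window, which says only that these letters are not in it. Of the 19 plasma protein genes with a promoter in the table, 5 held the half-site, or 26.3%, beside 6.22% of all 27305 promoters, and these were ALB, FGB, F2, APOH and FGA. All 5 were clearly expressed, but so were 11 of the 14 without it, RBP4 and APOE among them. Over all named genes the half-site was in 3.94% of the promoters of detected genes and 7.61% of those of genes not detected. None of the 19 held TATAAA, beside 11.1% of all promoters.

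Acute-phase proteins, which hepatocytes release in inflammation, were all detected, 10 of 10, beside 75.9% of all genes. Their median percentile was 81.98 and 7 were clearly expressed (70%, beside 42.4% of all genes). The orosomucoids ORM1 (19276 units) and ORM2 (13268 units) share most of their sequence, so their probes may not separate them, and the same holds for SAA1 and SAA2. Haptoglobin (HP) gave 11751 units and the iron hormone hepcidin (HAMP) 1454 units. C-reactive protein (CRP) was at the edge of detection, with 14.6 ± 2.95 units by 1 probe, 9.72 units by its other probe and no detection at CA 100 µM.

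Transcription factors of the hepatocyte lineage were detected for 24 of 25 (96%, beside 75.9% of all genes), with 16 clearly expressed (64%, beside 42.4%). The median percentile was 77.24. CEBPA, which drives hepatocyte maturation and slows division, was the brightest of these factors at 9944 units, followed by CEBPB at 7996 and GATA6 at 7897 units. FOXA1 and FOXA2, which open liver enhancers, were near each other at 5837 and 5788 units, and FOXA3 was dimmer at 223 units. The bile acid receptor NR1H4 (3560 units), the fetoprotein regulator NR5A2 (3438 units) and HHEX (4843 units), which acts in early liver budding, were also clearly expressed.

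HNF4A, the nuclear receptor at the centre of the hepatocyte programme, was the only factor of the list that was not detected. Its single named probe gave 9.37 ± 3 units on the untreated array, 21.8 units at CA 50 µM, where it was detected, and 15.5 units at CA 100 µM, where it was not. That probe is annotated to 1 transcript of a gene for which RefSeq holds 10, and no other probe was named for the gene, so its low signal is a value for that probe. The xenobiotic receptor NR1I3 was at the edge of detection with 15.3 units, while its relative NR1I2 gave 489 units.

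Metabolic genes of the mature hepatocyte were mostly detected. The shares were 90.9% for drug-metabolising, 89.5% for amino acid and urea cycle and 92.3% for carbohydrate enzymes, beside 75.9% of all genes. The shares clearly expressed were 31.8%, 42.1% and 38.5% in the same order, near or below the 42.4% of all genes. Drug-metabolising enzymes were detected for 20 of 22 genes with a median percentile of 61.32, close to the 61.85 of all genes, and 7 were clearly expressed. Carboxylesterase 1 (CES1) led at 6631 units, the sulfotransferase SULT2A1 gave 1225 units and the cytochrome P450 enzymes CYP2B6 and CYP3A5 gave 666 and 463 units. CYP3A4, the main drug oxidase of the adult liver, was not detected at 12.4 ± 3.33, 9.03 and 12.5 units on the 3 arrays, and the alcohol dehydrogenase ADH1B lay at the negative controls with 2.69 units. The fetal relative CYP3A7 gave 202 units, and CYP2E1 17 units, just above the limit of detection. Genes of the CYP3A group are close copies of each other, so a probe of one may also bind another.

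Enzymes of amino acid and urea metabolism were detected for 17 of 19 genes, with 8 clearly expressed and a median percentile of 65.43. Homogentisate dioxygenase (HGD) gave 10837 units and glutamine synthetase (GLUL) 6953 units. Along the urea cycle the steps differed. The first enzyme CPS1 gave 161 units, ornithine transcarbamylase (OTC) was not detected at 10.8 ± 2.84 units, and ASS1, ASL and ARG1, which act after it, gave 2505, 2950 and 11821 units. OTC was detected on both CA arrays, at 30.9 and 31.1 units. Tyrosine aminotransferase (TAT), a late marker of hepatocyte maturation, gave 20.8 units, and the liver glutaminase GLS2 was not detected at 7.01 units.

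Carbohydrate enzymes were detected for 12 of 13 genes, with 5 clearly expressed. Liver glycogen phosphorylase (PYGL, 19161 units) and the pyruvate kinase PKM (18733 units) were the brightest, and the liver pyruvate kinase PKLR gave 52.3 units. The hexokinase HK2, bright in many tumours, gave 4357 units. HK1 was not detected by its only named probe, which is annotated to 1 transcript of a gene with 27 in RefSeq. The gluconeogenic genes PCK1 and FBP1 gave 374 and 471 units, and the glucose-6-phosphatase G6PC1 gave 47.9 units.

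Bile acid and transporter genes were detected for 13 of 18 genes (72.2%), near the 75.9% of all genes. The list had 5 clearly expressed members (27.8%, beside 42.4% of all genes) and a median percentile of 40.01. The asialoglycoprotein receptor subunits ASGR2 and ASGR1 gave 21526 and 6357 units, the sterol hydroxylase CYP27A1 gave 7275 units and the canalicular pump ABCC2 gave 2746 units. The 3 hydroxylases CYP7A1, CYP7B1 and CYP8B1 were not detected on any of the 3 arrays, at 3.07, 9.25 and 5.14 units on the untreated one. CYP7A1 is the rate-limiting enzyme of the classical route of bile acid synthesis, whereas CYP27A1 opens the alternative route. The bile salt export pump ABCB11 was not detected at 12.1 ± 2.75 units, and the bile acid uptake carrier SLC10A1 gave 28.8 units.

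**Figure D2:**
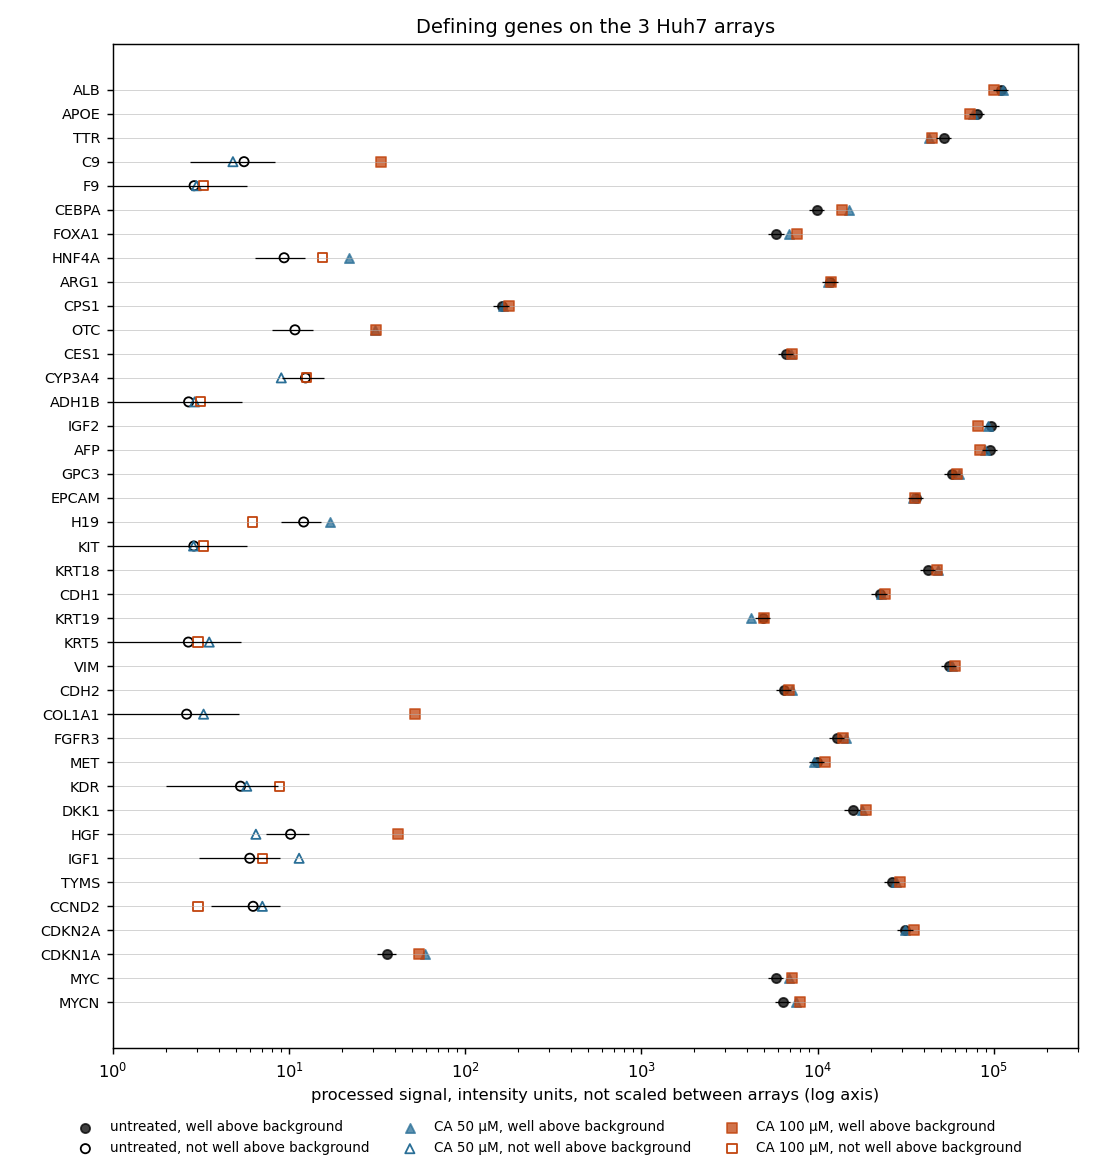
Processed signal in intensity units (log axis, not scaled between arrays) of defining genes of each list on the 3 Huh7 arrays. Circles are untreated, triangles CA 50 µM and squares CA 100 µM, open where the probe was not well above background, and lines are the scanner software's error on the untreated array, running to the left edge where it is about as large as the signal. ALB, AFP and IGF2 lie at the right edge on all 3 arrays, while F9, KIT and KRT5 lie near the negative controls on all 3.

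Oncofetal and progenitor genes were detected for 25 of 30 genes (83.3%, beside 75.9% of all genes), with 20 clearly expressed (66.7%, beside 42.4%). Their median percentile was 87.93. Alpha-fetoprotein (AFP), the fetal counterpart of albumin, gave 95490 ± 9550 units on the untreated array, 89739 units at CA 50 µM and 83766 units at CA 100 µM. IGF2, the fetal growth factor, gave 96963 ± 9700, 92439 and 81687 units on the same arrays, but its second probe gave only 42.1 units on the untreated array. The surface proteins CD24 (64010 units), glypican 3 (GPC3, 58390 units) and EPCAM (36128 units) and the trypsin inhibitor SPINK1 (58961 units) followed, and both probes of GPC3 were bright, the dimmer at 13554 units.

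The let-7 axis of fetal cells was also represented. LIN28B, which blocks the maturation of let-7 miRNAs, gave 11466 units while its relative LIN28A was not detected at 4.57 units. The let-7 targets HMGA2 and IGF2BP1, IGF2BP2 and IGF2BP3 gave 13323, 1257, 3010 and 3559 units by their brightest probes. The other probes of HMGA2 gave 132 and 52.5 units and that of IGF2BP2 gave 65.2 units, all detected but under 414 units. H19, the non-coding RNA that shares an imprinted domain with IGF2, was at the limit of detection by its single named probe, at 12.1 ± 3.15, 17 and 6.17 units on the 3 arrays, and was detected at CA 50 µM alone.

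Stem and progenitor markers divided. PROM1 (2166 units), SOX9 (5251 units), SOX4 (2320 units), CD44 (628 units) and the tetraspanin TSPAN8 (7833 units) were clearly expressed. The receptor KIT was not detected by any of its 3 probes, the brightest at 2.88 units, and neither were the surface protein THY1 (6.3 units) and the lectin REG3A (5.1 units). Telomerase (TERT) gave 233 units, SALL4 166 units and the fetal antigen DLK1 67.1 units, all detected and all under the level of the genes of other tissues.

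Cancer-testis antigens, which many hepatocellular carcinomas switch on, were detected for 6 of 11 genes (54.5%, beside 75.9% of all genes). None was clearly expressed, beside 42.4% of all genes. PRAME was the brightest at 268 units and MAGEA4 the dimmest at 2.49 units. The median percentile of 39.03 lay below that of all genes. Members of the MAGEA and SSX groups share sequence, so single members are uncertain.

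Simple epithelial and junction genes were detected for 35 of 37 (94.6%, beside 75.9% of all genes), with 26 clearly expressed (70.3%, beside 42.4%). Their median percentile was 79.9. The keratin pair of hepatocytes, KRT18 and KRT8, gave 42276 and 33190 units, although the bright KRT8 spot had a background flag and the second KRT8 probe gave 526 units. E-cadherin (CDH1) gave 22501 ± 2250 units on the untreated array, 23079 units at CA 50 µM and 24157 units at CA 100 µM. Desmoplakin (DSP, 17002 units), alpha-catenin (CTNNA1, 14417 units) and claudin 1 (CLDN1, 8139 units) represented desmosomes, adherens junctions and tight junctions. KRT7 and KRT19, keratins of bile duct cells and of some hepatocellular carcinomas, were clearly expressed at 6317 and 4889 units.

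Among the epithelial splicing and transcription factors the paralogs differed. ESRP2 gave 3654 units and its relative ESRP1 53.8 units. GRHL1 gave 4119 units, whereas neither probe of GRHL2 was detected on the untreated array, the brighter at 2.89 units. That probe was not detected on the CA arrays either, and the other gave 19 units at CA 100 µM. The vesicle protein RAB25 was not detected at 12.5 ± 3.45 units. The gap junction protein GJB1 of hepatocytes gave 61.4 units.

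Genes of basal and stratified epithelia were detected for 11 of 18 (61.1%, beside 75.9% of all genes), with 4 clearly expressed (22.2%, beside 42.4%). The median percentile was 39.87. The desmosomal protein PERP (26789 units), KRT10 (12281 units) and stratifin (SFN, 6735 units) were bright, while KRT5, KRT6A, KRT6B and KRT16 were not detected, from 2.68 units for KRT5 to 10.6 units for KRT6A. KRT14 and KRT17 gave 306 and 245 units. Of 53 keratin genes measured in all, 28 were detected (52.8%, beside 75.9% of all genes) and 10 clearly expressed (18.9%, beside 42.4%). This family was grouped by gene symbol after its values were seen.

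Mesenchymal genes were detected for 15 of 22 genes (68.2%, beside 75.9% of all genes), with 6 clearly expressed (27.3%, beside 42.4%). The median percentile was 48.45, and 2 members stood out. Vimentin (VIM), the intermediate filament of mesenchymal cells, gave 55778 ± 5580 units on the untreated array, 58255 units at CA 50 µM and 60549 units at CA 100 µM. N-cadherin (CDH2), which hepatocytes also carry, gave 6443 units. Most other members were low or not detected. The type I collagen chain COL1A1 (2.62 units), periostin (POSTN, 2.58 units), CDH11 (2.55 units), the fibroblast protein FAP (2.97 units) and the factors TWIST1 (6.62 units) and SNAI2 (7.71 units) were not detected on the untreated array. ZEB1 gave 939 and SNAI1 484 units. Fibronectin (FN1), a major product of hepatocytes, gave only 66.7 units by its single named probe, which is annotated to 1 transcript of a gene with 18 in RefSeq.

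Of the markers of other liver cell types, those of endothelial, immune and stellate cells had median percentiles of 36.32, 44.31 and 47.17, below the 61.85 of all genes, and those of bile duct cells had one of 68.14. The shares detected were 55.6% endothelial, 75% immune, 70% stellate and 90% cholangiocyte, beside 75.9% of all genes, so the immune share was near it. The shares clearly expressed were 11.1%, 8.33%, 30% and 50% in the same order, beside 42.4% of all genes. Endothelial genes were detected for 5 of 9, with 1 clearly expressed, PECAM1 at 480 units, and ENG, TEK and TIE1 were not detected. Immune genes were detected for 9 of 12 with 1 clearly expressed, the lysosomal protein CD68 at 456 units, and HLA-DRA was not detected at 3.71 units. Stellate and fibroblast genes were detected for 7 of 10 with 3 clearly expressed, led by desmin (DES) at 3075, 3945 and 3238 units on the 3 arrays, while LRAT, DCN and COL1A1 were not detected. Cholangiocyte genes were detected for 9 of 10 with 5 clearly expressed, among them ANXA4 at 56551 units, and the secretin receptor SCTR was not detected at 2.55 units.

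**Figure D3:**
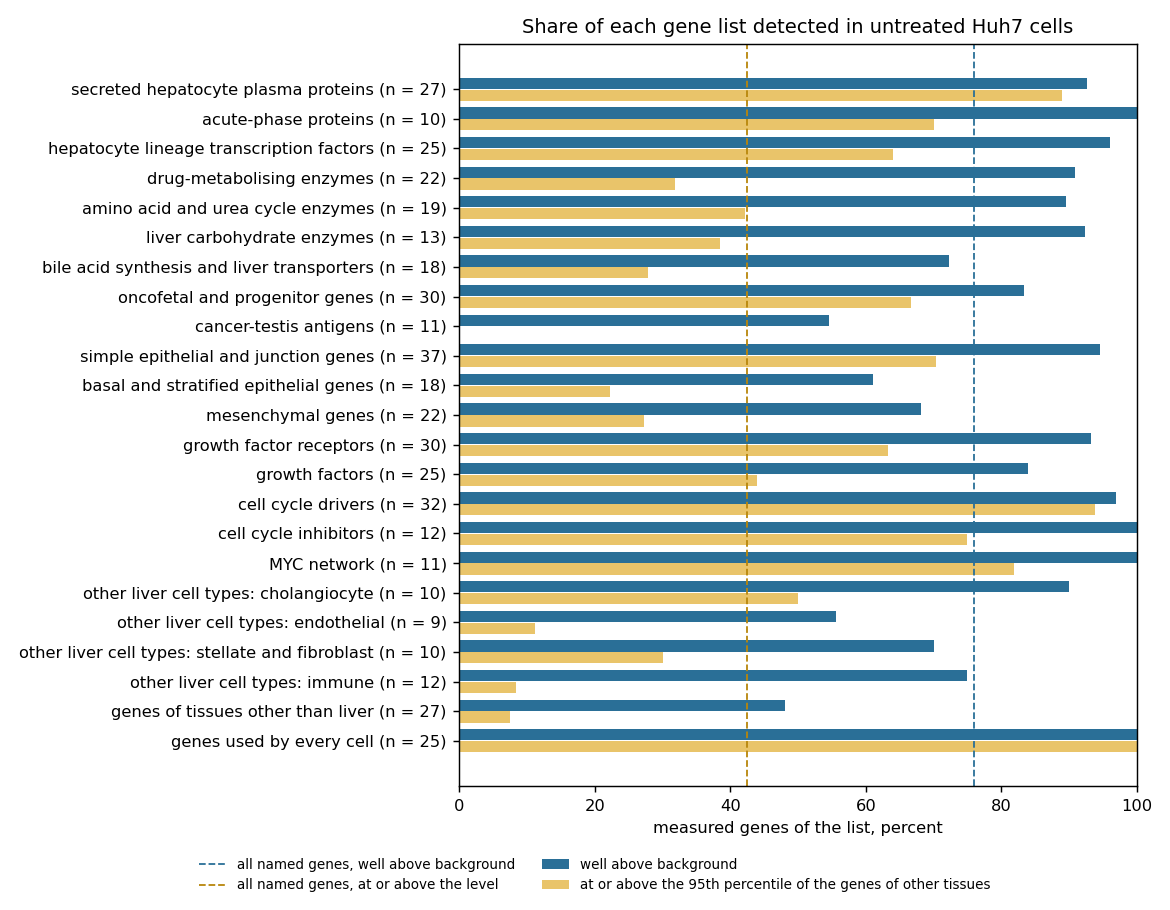
Percent of the measured genes of each list that were well above background (blue) or at or above the 95th percentile of the genes of other tissues (yellow) on the untreated array, with n the genes measured. Dashed lines give the same shares over all named genes, 75.9% and 42.4%. Cell cycle drivers and plasma proteins keep nearly all members by both rules, while endothelial and immune genes drop to 1 clearly expressed gene each.

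Growth factor receptors were detected for 28 of 30 genes (93.3%, beside 75.9% of all genes), with 19 clearly expressed (63.3%, beside 42.4%). Their median percentile was 78.4. FGFR3 was the brightest receptor at 12825 ± 1280 units on the untreated array, 14538 units at CA 50 µM and 13948 units at CA 100 µM, but its second probe gave 31.5 units on the untreated array. MET, the receptor of hepatocyte growth factor, gave 9927, 9511 and 10977 units. The insulin receptor INSR (6489 units), IGF1R (1847 units) and IGF2R (1166 units) were clearly expressed, as were ERBB3 (5003 units), ERBB2 (4466 units) and EGFR (2289 units). FGFR4, the main FGF receptor of normal hepatocytes, gave 177 units, although its co-receptor KLB gave 4230 units. The endothelial receptors KDR (5.3 units) and FLT1 (4.62 units) were not detected on any array.

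Growth factors were detected for 21 of 25 genes (84%, beside 75.9% of all genes), with 11 clearly expressed (44%, near the 42.4% of all genes). Their median percentile was 66.94, near the 61.85 of all genes. The Wnt inhibitor DKK1 was the brightest of the list at 15805 units, followed by VEGFB (6584 units), the hepatocyte product MST1 (6303 units) and the Notch ligand JAG1 (5525 units). IGF1, the growth factor of the adult liver, was not detected by either of its 2 probes, the brighter at 5.98 ± 2.89 units, in contrast to IGF2 among the oncofetal genes. HGF, made by stellate and endothelial cells in the liver, was not detected at 10.2 ± 2.77 units on the untreated array and 6.48 units at CA 50 µM. Its spot gave 41.6 units at CA 100 µM, in a disturbed area. FGF21 was not detected at 4.05 units and FGF19, a fetal and tumour product in liver, gave 243 units.

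Some ligands were clearly expressed together with their receptors, as IGF2 was with IGF1R and INSR, and AREG (2594 units) and EGF (803 units) with EGFR. Others were not. MET was clearly expressed while its ligand HGF was not detected, and MST1 was bright while its receptor MST1R gave 35.3 units. TGFBR2 gave 4597 units while the ligands TGFB1 and TGFB2 gave 47 and 46.9 units. For Wnt signals, families were grouped by symbol after their values were seen. Frizzled receptors were clearly expressed for 6 of 10 genes (60%, beside 42.4% of all named genes), led by FZD7 at 6508 units. Wnt ligands were clearly expressed for 1 of 19 (5.26%), WNT5A at 486 units. None of 22 fibroblast growth factor genes was clearly expressed, beside 42.4% of all named genes.

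**Figure D4:**
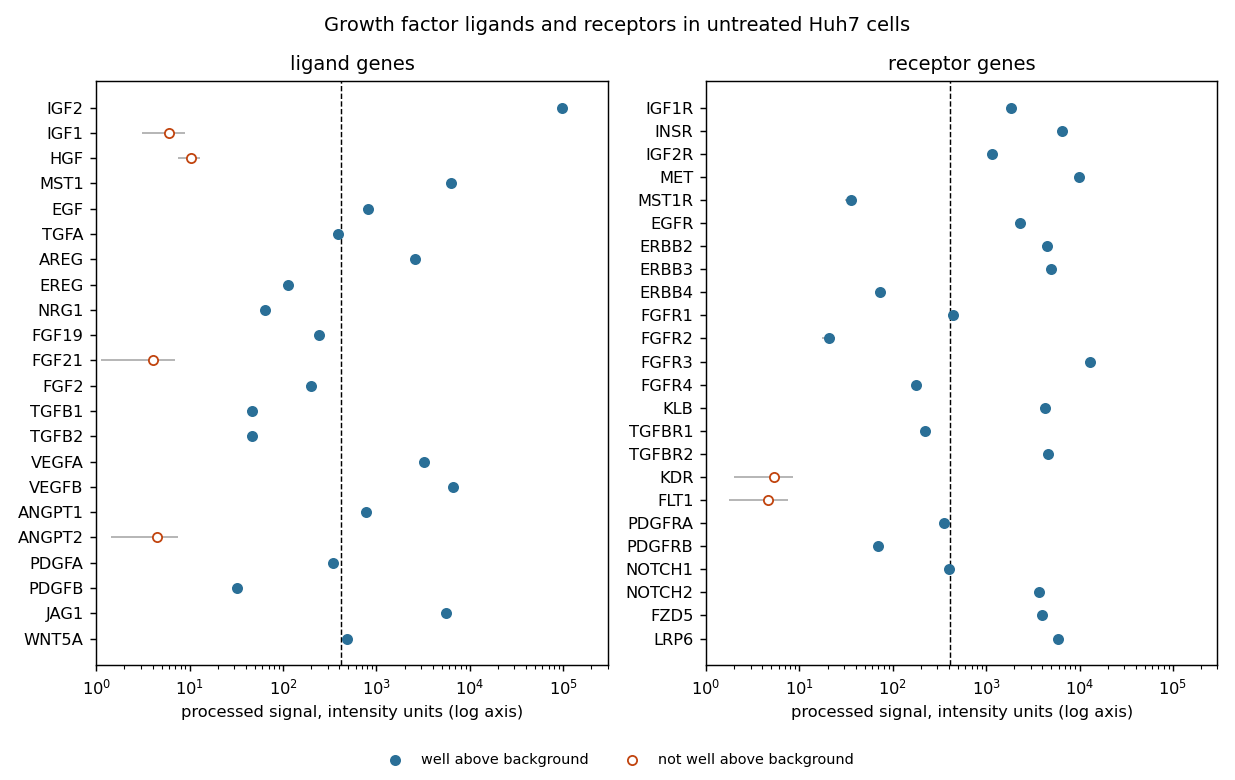
Processed signal in intensity units (log axis) of growth factor ligands (left) and receptors (right) on the untreated array, with the scanner software's error as lines and the 95th percentile of the genes of other tissues (414 units) dashed. Open points were not well above background. IGF2, MST1, VEGFB and JAG1 stand out among ligands, while IGF1, HGF, FGF21 and ANGPT2 lie at background, and KDR and FLT1 are the only receptors shown that were not detected.

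Cell cycle drivers were detected for 31 of 32 genes (96.9%, beside 75.9% of all genes) and clearly expressed for 30 (93.8%, beside 42.4%). Their median percentile was 87.03. Thymidylate synthase (TYMS) gave 26422 units, the replication clamp PCNA 19918 units, the helicase subunits MCM7 and MCM3 15549 and 14910 units, and the mitotic cyclin CCNB1 14491 units. Among D cyclins, CCND1 gave 957 units and CCND3 169 units, while CCND2 was not detected on any array, at 6.25 ± 2.67 units on the untreated one. CDK4, CDK6 and CDK1 gave 5648, 2993 and 7003 units.

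Cell cycle inhibitors were all detected, 12 of 12, beside 75.9% of all genes, and 9 were clearly expressed (75%, beside 42.4%). CDKN2A, whose products include the CDK4 and CDK6 inhibitor p16, gave 31540, 31565 and 35519 units on the 3 arrays. That spot had a background flag on the untreated array, and the second probe gave 2375 units there. Which transcripts of CDKN2A the probes read was not checked. The retinoblastoma gene RB1, whose product p16 keeps active, gave 4007 units, and CDKN1B gave 3316 units. CDKN1A, which encodes p21, gave 36.2 ± 4.48 units on the untreated array, 59.3 units at CA 50 µM and 54.7 units at CA 100 µM, all detected and all under the level of the genes of other tissues. CDKN2B gave 21 units. CDKN1A has 12 transcripts in RefSeq and its single named probe is annotated to 1 of them.

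The MYC network was detected for 11 of 11 genes, beside 75.9% of all genes, and clearly expressed for 9 (81.8%, beside 42.4%). MYC and its paralog MYCN were similarly bright, MYC at 5811, 6865 and 7163 units and MYCN at 6356, 7531 and 7934 units on the untreated, CA 50 µM and CA 100 µM arrays, not scaled between arrays. MAX, the partner of MYC and MYCN, gave 1115 units, and among its other partners MNT gave 1673 and MXD4 77.1 units. Dimmer probes gave 64.1 and 29 units for MAX, 52.2 units for MNT and 36.7 units for MXD4. MYCL gave 444 units by one probe and 3.89 units by the other.

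Probes of 28 of the 120 listed genes with several probes fell on both sides of the call. That share was near the one over all named genes with several probes, 1181 of 4988 (23.7%). Clearly expressed genes among them included MXI1, MXD1, ERBB3, GHR, FGFR1, MYCL, MKI67 and, from the genes of other tissues, MBP. The proliferation marker MKI67 gave 706, 100 and 4.03 units by its 3 probes, and the growth hormone receptor GHR 688 and 2.81 units. For these genes the dim probe alone would have given the opposite call.

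**Figure D5:**
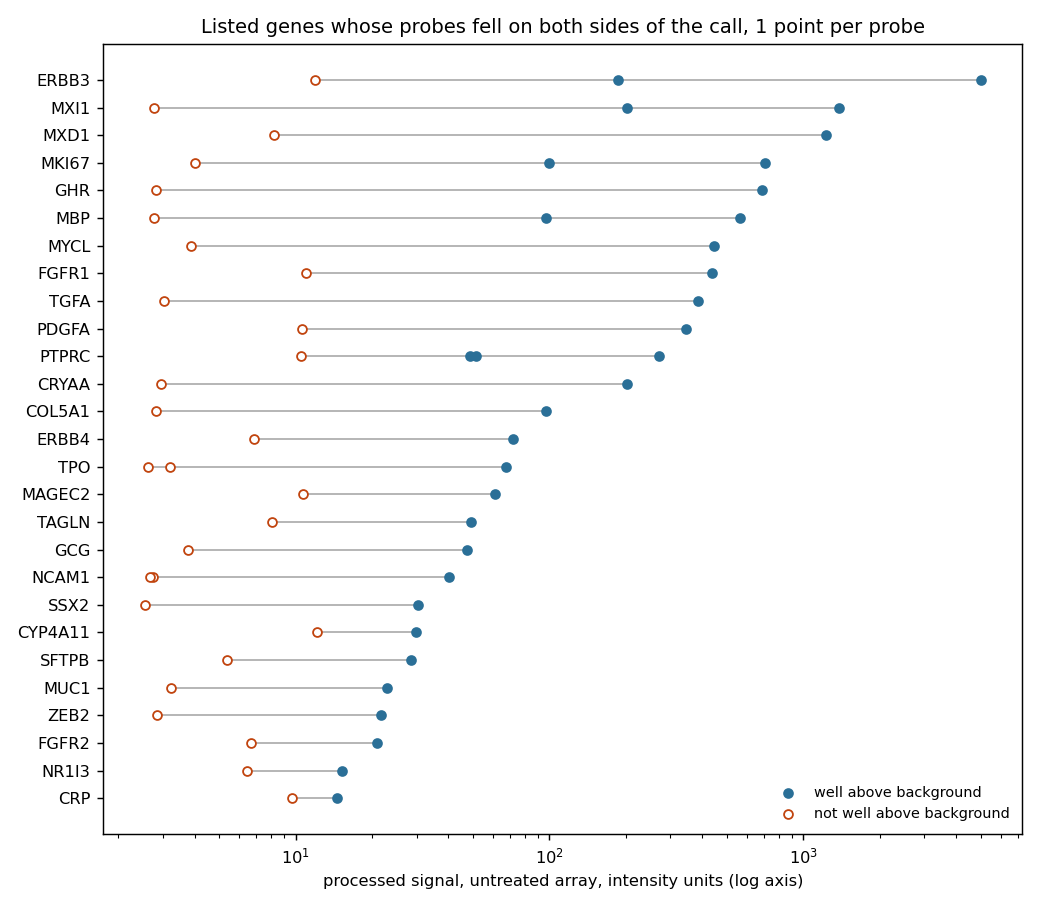
Processed signal in intensity units (log axis) of every probe of 27 of the 28 listed genes whose probes fell on both sides of the call on the untreated array, 1 point per probe. Filled points were well above background and open points were not. ERBB3 spans 11.9 to 5003 units and CRP only 9.72 to 14.6 units.

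The CA arrays were set beside the untreated profile. Of 443 listed genes with a named probe, 418 had the same call on all 3 arrays. No listed gene whose call differed gave more than 73.8 units on any array. Of all 14966 named genes detected on the untreated array, 14539 (97.1%) were detected on all 3. After each array was divided by its 75th percentile, which was 1059, 1207 and 1249 units, 10 of 370 listed genes detected on both arrays were at least 2-fold apart at CA 50 µM and 7 of 370 at CA 100 µM. Over all named genes the shares were lower, 143 of 14696 (0.973%) and 93 of 14633 (0.636%). The lists were chosen with earlier results of these data known, so these counts are no independent check on stability. Without a replicate array of any group, a difference between cultures cannot be told apart from one between treatments.

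SERPINA3, an acute-phase protease inhibitor, was the only listed gene at least 2-fold lower on both CA arrays, with 1450 ± 145, 425 and 505 units and log2 ratios to the untreated array of -1.96 and -1.76. Its 2 other probes went the other way at CA 100 µM, from 147 to 478 units and from 43.7 to 250 units. The other genes at least 2-fold apart at CA 50 µM were CTNNB1, KRT14, KRT17, EREG, ERBB4, NRG1 and SFTPB, all lower there, and FGFR4 and MAZ, both higher. KRT14 was lower at CA 50 µM and higher at CA 100 µM, with log2 ratios of -1.81 and 1.09. The second probe of CTNNB1 was higher on both CA arrays, at 214 and 99.7 units against 47.5 units. At CA 100 µM, HBB, CDKN2B, TAT and KRT13 were higher, and all 4 had their spots within disturbed areas there, while NCAM1 was lower. NCAM1 was not detected at CA 50 µM, with 14.1 units against 40.4 units untreated. SFTPB was not detected at CA 100 µM, with 6.5 units against 28.5 units untreated, so each had 1 ratio only.

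Disturbed areas held 60 gene spots of the untreated array, 38 of the CA 50 µM array and 2460 of the CA 100 µM array, and no listed gene was represented by a probe in one of the untreated array. A background flag marked the spot of 17 listed genes on the untreated array, SERPINA1, MET, ERBB2, IGF2R and ABCB11 among them. Of 12 listed genes detected at CA 100 µM but not on the untreated array, 5 lay in a disturbed area of the former, C9, COL1A1 and HGF among them.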

How the data were processed

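RNA of 3 Huh7 cultures (untreated, CA 50 µM and CA 100 µM for 24 h) had been hybridised by the authors to 1-colour Agilent 4x44K arrays, 1 array per group. The authors scanned them and made the deposited intensity values with Agilent Feature Extraction 11.0.1.1 (per the labels), which subtracts background, flags outlier spots and calls spots well above background, with no scaling between arrays. The authors also deposited log2 values of the same arrays, whose normalization is not given in the sources used here. All 3 of those columns had a median of 6.22, and they were used as an alternative.

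Here, log2 processed signals were averaged over the spots of a probe, probes were named through RefSeq accessions (GRCh38.p14 gene table), and the brightest probe represented a gene. List genes with no named probe, such as TF, GSTA1 and ALDOA, were not analysed here. Values of a few list genes are not reported here, although the counts include them. A percentile is the rank of a probe among all kept gene probes. Log2 ratios between arrays used signals divided by the 75th percentile of each array and probes detected on both. A disturbed area was a window of 17 rows and 7 columns around a spot holding 5 or more detected spots that were undetected on both other arrays and 4-fold or more above them, if these made up 25% or more of the spots undetected on the other arrays. The error beside a signal is that of the scanner software for the spot, and a single array limits the precision to it.

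The gene lists, 23 in all, and the members were chosen with earlier results of these data known. Named were the 25 brightest genes, list genes, list genes whose probes disagreed on the call and list genes at least 2-fold apart on a CA array. No test between groups was possible with 1 array per group. The code was tested on simulated data. Tables were built in Python 3.11.15 with pandas 2.3.3. The normexp alternative (offset 50) came from limma 3.58.1 under R 4.3.3.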

Additional observations from a re-analysis of the deposited data

How the results depend on the processing

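The stricter level taken from genes of other tissues moved the counts most, to 8358 named genes and, among the lists, to 7 drug-metabolising, 8 amino acid and urea cycle, 5 carbohydrate, 5 bile acid and transporter, 0 cancer-testis, 4 basal epithelial, 6 mesenchymal, 11 growth factor, 5 cholangiocyte, 1 endothelial, 3 stellate, 1 immune and 2 other-tissue genes, the last fixed by the level itself, which is the 95th percentile of those genes. The looser call of a positive and significant spot gave 17 basal epithelial and 20 other-tissue genes. The mean over all probes of a gene put the median percentile of growth factor receptors at 66.13. Percentiles of single genes moved by more than 5 in 6 of 192 values, of which the mean over probes gave 4, IGF2 at 72.54, KRT8 at 85.11, FGFR3 at 69.48 and CDKN2A at 92.96. Leaving out spots with background flags gave the other 2, KRT8 at 71.23 and CDKN2A at 87.06. For listed genes at least 2-fold apart, normexp correction gave 5 at CA 50 µM and 90 at CA 100 µM, where 89 of the 90 lay under 414 units on the untreated array. The 5th percentile of its values was 466 units on that CA array and 60.5 units on the untreated one. Leaving out disturbed areas, chosen after the values were seen, gave 3 at CA 100 µM. All other counts stayed within 1.5 times and all other list medians within their interval, under every alternative run. Some of these intervals were wide. The mean over probes moved the MYC network median from 81.67 to 56.72, within an interval of 56.08 to 93.51. It also gave 76.99 against 87.93 for oncofetal genes and 65.21 against 77.24 for hepatocyte lineage factors. For cancer-testis antigens it gave 21.83 against 39.03. No paired analysis was possible because each group has 1 array, and for the same reason no replicate could be left out.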

Other observations

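Some bright genes lay outside the lists and were noticed after their values were seen. The retinal dehydrogenase ALDH1A1 gave 62836 units on the untreated array, 63468 units at CA 50 µM and 62547 units at CA 100 µM, and its dimmer probe gave 19800 units on the untreated array. CYP2W1, a cytochrome P450 of fetal tissue and tumours, was the brightest of 54 P450 genes at 61130, 59436 and 56754 units on the 3 arrays. COL2A1, the collagen chain of cartilage, was the brightest of 44 collagen genes at 46077, 54331 and 54067 units, while COL1A1 was not detected on the untreated array. COL5A2 followed at 24624, 25471 and 27043 units.

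Among 38 HOX genes, which set position along the body axis, 30 were detected (78.9%, near the 75.9% of all named genes) and 9 clearly expressed (23.7%, beside 42.4%), with HOXC6 brightest at 11599, 11306 and 12016 units. The hair keratin KRT81 gave 10667, 12479 and 9693 units. Its relative KRT83 gave 1609 units by one probe and 6.11 units by the other. Olfactory receptors were detected for 90 of 353 genes (25.5%) and clearly expressed for 6 (1.7%), with a median of 4.23 units, beside 42.4% clearly expressed over all named genes. Long non-coding RNA genes were detected for 495 of 1033 (47.9%), and protein-coding genes for 14115 of 18144 (77.8%).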
